A study of Rattus norvegicus with 48 samples.

Results

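Gfap (ENSRNOG00000002919) encodes glial fibrillary acidic protein, and Vim (ENSRNOG00000018087) encodes vimentin. Both genes were taken by their Ensembl IDs from the 2 deposited count tables of a study of rat motor cortex around silicon electrodes. They are 2 of the 18997 genes listed in either table, and both stand in each table, of 17317 genes for implanted rats and 17616 for naive rats. The tables list IDs without gene names, so no other gene is given by name and the tissue could not be checked against its cell type markers.

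Intermediate filaments are rope-like protein polymers that give a cell mechanical strength. In the adult brain GFAP is the filament protein by which astrocytes are recognised, and astrocytes that react to injury are known to raise it. Vimentin is the filament of immature astrocytes, returns in reactive ones and polymerises together with GFAP. It is also made by endothelial cells, fibroblasts, microglia and macrophages, so its RNA is not specific to astrocytes.

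All rats were wild type (WT) Sprague-Dawley animals, and the labels describe the implanted ones as males aged 12 to 14 weeks. A single-shank silicon probe 15 µm thick was placed in the motor cortex, and tissue was taken 24 h, 1 week or 6 weeks later. From fixed sections 20 µm thick, laser capture microdissection cut near tissue, at most 100 µm from the shank, and far tissue, some 500 µm from it. Naive rats had no implant, and tissue was cut at the 2 matching positions. The 36 implanted libraries were from 12 rats (3 at 24 h, then 5 and 4 at the later times), and the 12 naive libraries from 3 rats. A captured area holds every cell type present there, and fewer cells of a type and less RNA per cell cannot be told apart.

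The first 250 bases upstream of each gene are shown because both genes are read as markers of the same reactive state. They come from RefSeq on the rat assembly GRCr8, which is not the build of the deposited counts (Rnor_6.0). The Gfap window lies at chr10:88361662-88361911 on the minus strand and the Vim window at chr17:81577011-81577260 on the plus strand. Capitals mark matches to any of 4 motifs searched on both strands.
Gfap: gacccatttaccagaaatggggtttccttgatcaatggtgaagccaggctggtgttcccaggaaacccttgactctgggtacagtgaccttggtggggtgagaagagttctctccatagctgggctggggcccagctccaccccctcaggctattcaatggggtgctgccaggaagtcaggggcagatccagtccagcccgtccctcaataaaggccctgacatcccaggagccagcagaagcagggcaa
Vim: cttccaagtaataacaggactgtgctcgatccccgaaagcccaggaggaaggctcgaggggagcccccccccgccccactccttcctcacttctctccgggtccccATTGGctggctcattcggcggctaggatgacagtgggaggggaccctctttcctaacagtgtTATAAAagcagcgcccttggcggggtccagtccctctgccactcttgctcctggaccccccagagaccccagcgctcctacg

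The motifs were TTCCNGGAA, a form bound by STAT factors, TGANTCA, bound by AP-1, and the core promoter motifs TATAAA and CCAAT. They do not overlap in these windows. Vim held TATAAA 82 bases before the start and CCAAT on the opposite strand 144 bases before it. Gfap held none of the 4, which says only that these letters are not in this window. Of 33469 RefSeq promoter windows of the same length, 1.07% held TTCCNGGAA, 6.34% TGANTCA, 12.93% TATAAA and 34.02% CCAAT. The last 2 motifs were added after the sequences had been read.

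Library totals ranged from 3363892 to 12844185 counts in implanted rats and from 4209485 to 11555077 in naive rats. In 4 libraries fewer than 6000 genes were detected. They were near tissue of the right hemisphere of rat 29 at 24 h, near tissue of rat 20 and of the right hemisphere of rat 23 at 1 week, and far tissue of the left hemisphere of rat 23 at 1 week. The 2 most abundant genes held on average 30.8% of near and 23.9% of far counts in implanted rats, so their share moved with distance. Gfap had at least 19 counts in every library, while Vim had 0 counts in 1 far library at 6 weeks and in 3 naive libraries.

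Levels are given as CPM, the count scaled to a common library total, with TMM scaling, summed over both hemispheres of a rat where both were sampled. Tests between groups used edgeR on these sums, adjusted over all genes of a comparison, and genes with an adjusted p under 0.05 count as called. Each log2 difference from edgeR carries an approximate standard error after its ±. The ± after a per-rat mean is the SD over rats. Per-rat differences are on the log2 CPM scale with a prior count of 2, which understates differences of low values. Where groups are said not to overlap, the share of all genes that separated likewise was not counted.

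Vim RNA was higher beside the shank than at a distance in every implanted rat. Averaged over the 3 times it rose 3.06 ± 0.43 on the log2 scale near against far (edgeR adjusted p = 7.09e-05). The median over all 14399 genes tested was -0.39, and 1.51% of these genes were called. Of the calls 55 were higher and 162 lower near the shank, and 91 and 63 with DESeq2 size factors (Vim 3.26, edgeR adjusted p = 0.0343). Without the rat as a block Vim was 2.49 and was not called (edgeR adjusted p = 0.179). The mean difference per rat was 3.10 ± 1.56 (SD, n = 12), with the same sign in all 12 (exact permutation by sign flips, two-sided p = 0.000488, the smallest possible, and 0.00732 adjusted over 15 such tests).

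At 24 h Vim measured 680 CPM near the shank in rat 25, 272 in rat 29 and 101 in rat 30. Far tissue of the same rats measured 96.3, 17.2 and 27.1 CPM. Every near value lay above every far value at this time. The log2 difference was 2.88 ± 0.80 and did not pass the test (edgeR adjusted p = 0.329), in a comparison that called 0.132% of genes.

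At 1 week near tissue measured 193 CPM in rat 9, 184 in rat 10, 251 in rat 20, 473 in rat 22 and 481 in rat 23. Far tissue of these rats measured 3.27, 20.9, 13.6, 183 and 285 CPM. The groups overlapped, because far tissue of rat 23 held more Vim than near tissue of rats 9, 10 and 20. Vim rose 3.03 ± 0.68 near against far (edgeR adjusted p = 0.0414), and 0.396% of genes were called, with a median of -0.66 over all genes. With DESeq2 size factors the value was 3.29 and was not called (edgeR adjusted p = 0.517). Without the rat as a block it was 1.65 (edgeR adjusted p = 0.862). It was also not called without the 2 most abundant genes (3.02, edgeR adjusted p = 0.068), without rat 30 (3.03, edgeR adjusted p = 0.193) or without rat 19 (3.03, edgeR adjusted p = 0.0567).

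At 6 weeks near tissue measured 6.24 CPM in rat 2, 70.4 in rat 11, 336 in rat 17 and 185 in rat 19. Far tissue measured 0, 22.7, 25.8 and 28.4 CPM. Rat 2 was the lowest of the 4 at both distances, with 42 near counts and 0 far counts. A count of 0 allows up to 0.319 CPM (3 counts, counting error only), so near tissue of this rat was at least 19.6-fold higher. The log2 difference over the 4 rats was 3.27 ± 0.73 and was not called (edgeR adjusted p = 0.129), beside 0.0764% of genes called. With rat 2 set at its bound, the mean per-rat difference was 3.08 ± 1.17 (SD, n = 4) in place of 3.32 ± 1.54, and that over all rats 3.02 ± 1.46 (SD, n = 12).

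Gfap levels were high both near and far from the shank in some rats at 24 h and 1 week, and near tissue stood above far tissue in all rats at 6 weeks. Averaged over the 3 times the log2 difference near against far was 1.69 ± 0.59 and was not called (edgeR adjusted p = 0.406). The mean difference per rat was 1.75 ± 2.25 (SD, n = 12), above 0 in 9 of them (exact permutation by sign flips, two-sided p = 0.0239, and 0.120 adjusted over 15 such tests).

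At 24 h Gfap measured 511 CPM near the shank in rat 25, 1749 in rat 29 and 1553 in rat 30. Far tissue of these rats measured 2256, 400.4 and 1239 CPM. Rat 25 had the lowest near value and the highest far value, and it also had the highest Vim values at both distances. The log2 difference near against far was 0.13 ± 1.16 (edgeR adjusted p = 1), and it turned to -0.91 without rat 29 and to 1.22 without rat 25. Without the 4 libraries of few detected genes it was -0.02.

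At 1 week near tissue held 1655 CPM in rat 9, 2151 in rat 10, 1996 in rat 20, 1517 in rat 22 and 3565 in rat 23. Far tissue held 205, 465, 372, 3317 and 7208 CPM. Near values were alike in 4 rats and highest in rat 23, whereas far values split into 3 low and 2 high rats. The 2 rats with high far Gfap, 22 and 23, were also the 2 with high far Vim. The log2 difference near against far was 1.19 ± 0.93 (edgeR adjusted p = 0.964), between 0.64 and 1.80 when each rat was left out in turn.

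At 6 weeks near tissue held 940.3 CPM in rat 2, 954 in rat 11, 2641 in rat 17 and 1823 in rat 19. Far tissue held 24.4, 66.9, 250.03 and 281 CPM, so the groups did not overlap. The log2 difference was 3.76 ± 0.99, above 0 in 4 of 4 rats, and did not pass the test (edgeR adjusted p = 0.786). That comparison called 0.0764% of genes. The per-rat difference was 3.80 ± 1.08 (SD, n = 4; exact permutation by sign flips, two-sided p = 0.13, the smallest that 4 rats allow). DESeq2 gave 3.88 with an adjusted p of 0.000154.

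**Figure D1:**
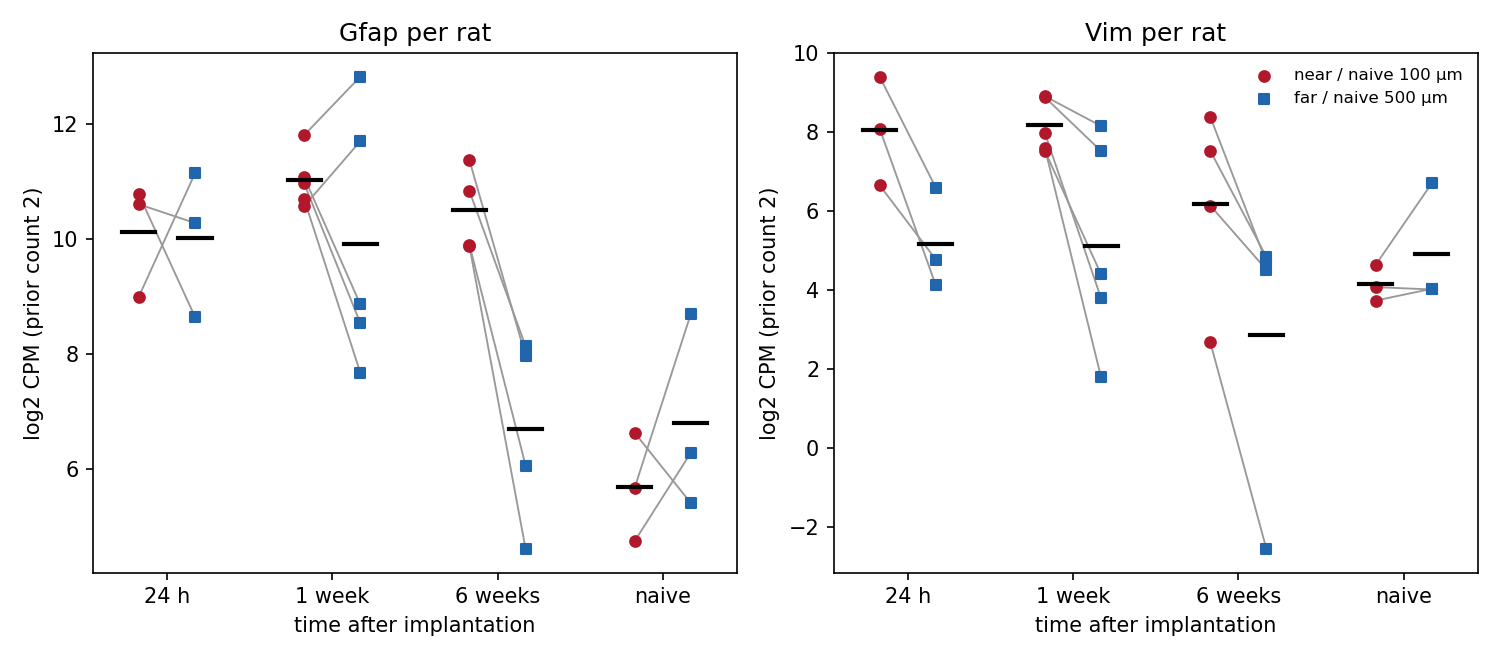
Level of Gfap (left) and Vim (right) in log2 CPM with a prior count of 2, by time, with naive rats at the right of each panel. Each point is 1 rat, circles are near or naive 100 µm tissue, squares are far or naive 500 µm tissue, grey lines join the tissues of a rat and bars are group means. All 12 lines of implanted rats run down from near to far for Vim, and 9 of 12 for Gfap, including all 4 at 6 weeks.

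A change in the near-far difference between times was tested directly in the same fit. From 24 h to 6 weeks the Gfap difference was larger by 3.63 ± 1.49 on the log2 scale without passing the test (edgeR adjusted p = 1). From 1 week to 6 weeks it differed by 2.57 ± 1.29 and from 24 h to 1 week by 1.07 ± 1.48, each with an edgeR adjusted p of 1. The Vim difference was larger by 0.39 ± 1.01, 0.24 ± 0.93 and 0.15 ± 1.00 in the same order (edgeR adjusted p = 1 for each). Of all genes 0.0208% were called for 24 h to 6 weeks, 0.0278% for 1 week to 6 weeks and 0% for 24 h to 1 week. Where edgeR called 0 genes, 258 of 14399 had an unadjusted p below 0.05 and DESeq2 called 418. If no gene changed, a share of 0.05 of all genes would have such a p, which is more than 258.

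Counted by rat, the Gfap differences of 24 h and 6 weeks did not overlap. They ran from -2.14 to 2.13 at 24 h and from 2.69 to 5.26 at 6 weeks (exact permutation test, p = 0.0286, the smallest possible, and 0.214 adjusted over 45 comparisons). At 1 week they ran from -1.13 to 3.02, which overlapped both other times. The Vim differences spanned 1.88 to 3.97, 0.76 to 5.81 and 1.63 to 5.24 at 24 h, 1 week and 6 weeks and overlapped throughout. These comparisons share the groups of each time with one another.

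Counted by implanted hemisphere, Vim was higher near than far around 17 of 18 shanks, and Gfap around 13 of 18. The 1 exception for Vim was the right shank of rat 23 at 1 week, where the near and far levels were 457 and 492 CPM. Its near library was among the 4 with few detected genes. At 6 weeks the Vim difference was small around the left shanks of rats 17 (0.36) and 19 (0.20) on the log2 scale. Around their right shanks it was 7.05 and 3.49, so the Vim differences of these 2 rats rested mainly on the right hemisphere. For Gfap, near tissue was higher around 3 of 6 shanks at 24 h, 4 of 6 at 1 week and 6 of 6 at 6 weeks. Both shanks of rat 25 at 24 h had more Gfap far than near, by 2.14 (left) and 2.18 (right) on the log2 scale. Shanks of the same rat are not independent.

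**Figure D2:**
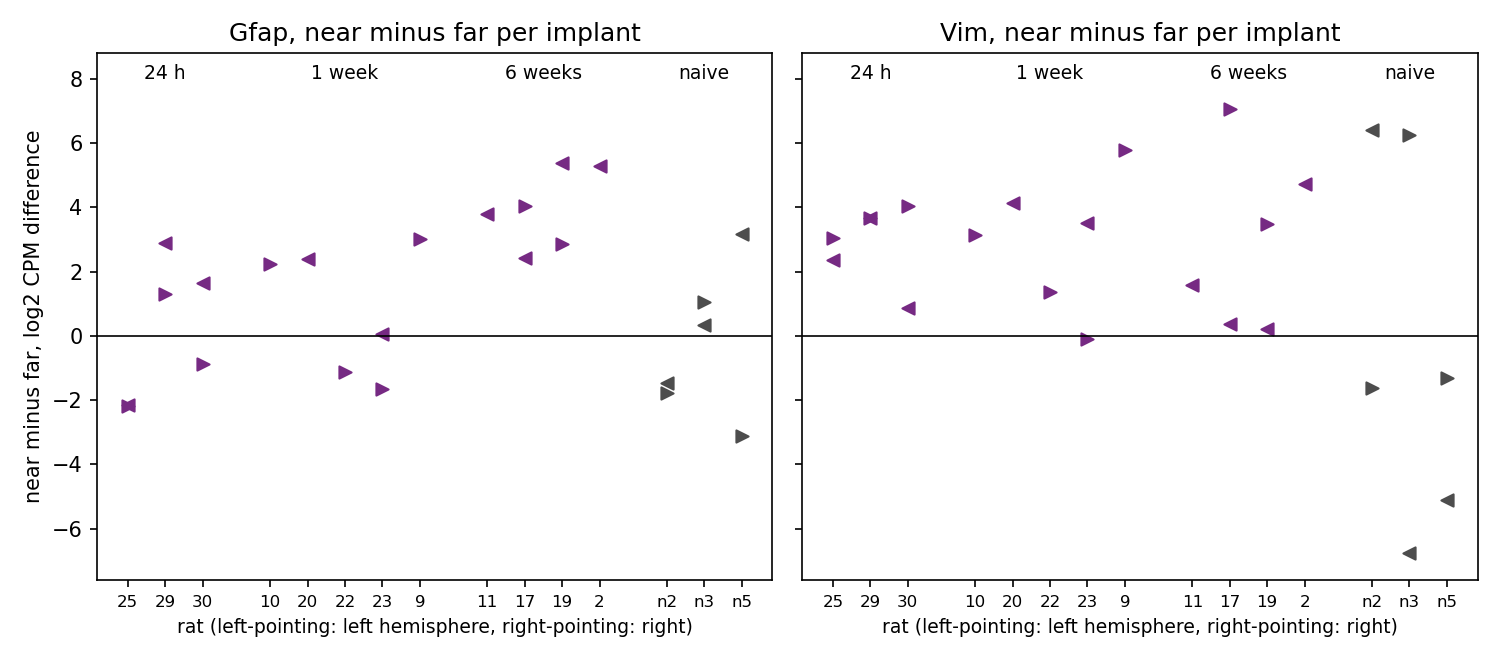
Near minus far difference in log2 CPM for each hemisphere, Gfap left and Vim right, by rat and time. Triangles point to the hemisphere, purple ones are implanted shanks and grey ones are the matching positions of naive rats. Vim lies above 0 for 17 of 18 shanks, and Gfap for 6 of 6 shanks at 6 weeks.

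Both hemispheres of a rat gave libraries in 6 implanted rats, which shows the spread within an animal. Near the shank the median fold between hemispheres was 1.72 for Gfap and 1.62 for Vim. Far from it the median fold was 3.11 for Gfap and 3.35 for Vim, so single far libraries varied more by this median. Near tissue of rat 19 at 6 weeks still differed 10.1-fold for Gfap and 12.0-fold for Vim. Among implanted rats the widest gap for Gfap was in far tissue of rat 19 at 6 weeks, with 8.09 CPM on the left and 489 on the right. For Vim it was in far tissue of rat 23 at 1 week, with 33.4 CPM on the left and 492 on the right.

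Against naive cortex, Gfap was higher near the shank at all 3 times. Naive tissue at the 100 µm position measured 26.9, 99.3 and 51.3 CPM in naive rats 2, 3 and 5, and no near value of an implanted rat overlapped them. Gfap rose 5.22 ± 0.68 on the log2 scale at 1 week (edgeR adjusted p = 0.0109) and 4.76 ± 0.67 at 6 weeks (edgeR adjusted p = 0.0465). At 24 h the value was 4.44 ± 0.67, just outside the threshold (edgeR adjusted p = 0.0508). The comparisons called 0.0578%, 0.123% and 0.0434% of 13834 genes at 24 h, 1 week and 6 weeks, with medians over all genes of -0.17, -0.30 and -0.17.

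The 1 week call held with each rat left out in turn, and the 6 week call held in 4 of 15 such fits (without rat 25 or 23 or naive rat 2 or 3), with edgeR adjusted p up to 0.139. The 24 h value was called in 5 of 15. Exact permutation of the per-rat values gave p = 0.0179 at 1 week and 0.0286 at 6 weeks, each the smallest possible, and 0.214 for both after adjustment. Naive and implanted libraries stand in separate tables with separate library number series, so an effect of the implant cannot be told apart from one of batch. The 3 comparisons share the same naive rats.

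Vim near the shank was also above naive tissue in value. Naive tissue at 100 µm measured 16.7, 13.1 and 24.6 CPM, below every near value except that of rat 2 at 6 weeks. These are sums per rat, and single naive libraries differed widely. Left and right held 22.5 and 8.72 CPM in naive rat 2, 0 and 20.3 in naive rat 3, and 0.70 and 68.3 in naive rat 5. The right library of naive rat 5 lay above the left near libraries of rats 17 (63.2 CPM) and 19 (30.1 CPM) at 6 weeks. The log2 differences were 4.31 ± 1.17 at 24 h, 4.14 ± 1.13 at 1 week and 3.04 ± 1.08 at 6 weeks. None passed the test (edgeR adjusted p = 0.633, 0.390 and 1). DESeq2 called all 3, with adjusted p-values of 4.56e-06, 5.82e-07 and 0.00358.

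Far from the shank neither gene was called against naive tissue. Naive tissue at the 500 µm position held 78.2, 42.5 and 417 CPM of Gfap in naive rats 2, 3 and 5. The Gfap log2 difference was 2.80 ± 1.51 at 24 h, 3.64 ± 1.50 at 1 week and -0.26 ± 1.31 at 6 weeks (edgeR adjusted p = 0.666, 0.506 and 1). Far values at 6 weeks, 24.4 to 281 CPM, lay within the naive range in 3 rats and below it in rat 2. The top of that range was naive rat 5, with 3.11 CPM on the left and 817 on the right. Without naive rat 5, far tissue of rats 17 and 19 (250 and 281 CPM) lay above the naive values. The log2 difference at 6 weeks was then 1.31. DESeq2 called the 1 week value (3.74, adjusted p = 0.0153). The comparisons called 0.00748% of 13369 genes at 24 h, 0.127% at 1 week and 0.0598% at 6 weeks.

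Naive tissue at 500 µm held 16.0, 16.2 and 104 CPM of Vim. The Vim log2 differences were -0.01 ± 1.71, 1.11 ± 1.59 and -1.296 ± 1.59 at 24 h, 1 week and 6 weeks (edgeR adjusted p = 1 for each). Far tissue of rats 22 and 23 at 1 week, at 183 and 285 CPM, lay above the highest naive value, and all other far values lay below it. That highest value was from naive rat 5, with 33.0 CPM on the left and 171 on the right. Without this rat the log2 difference at 6 weeks was 0.21.

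**Figure D3:**
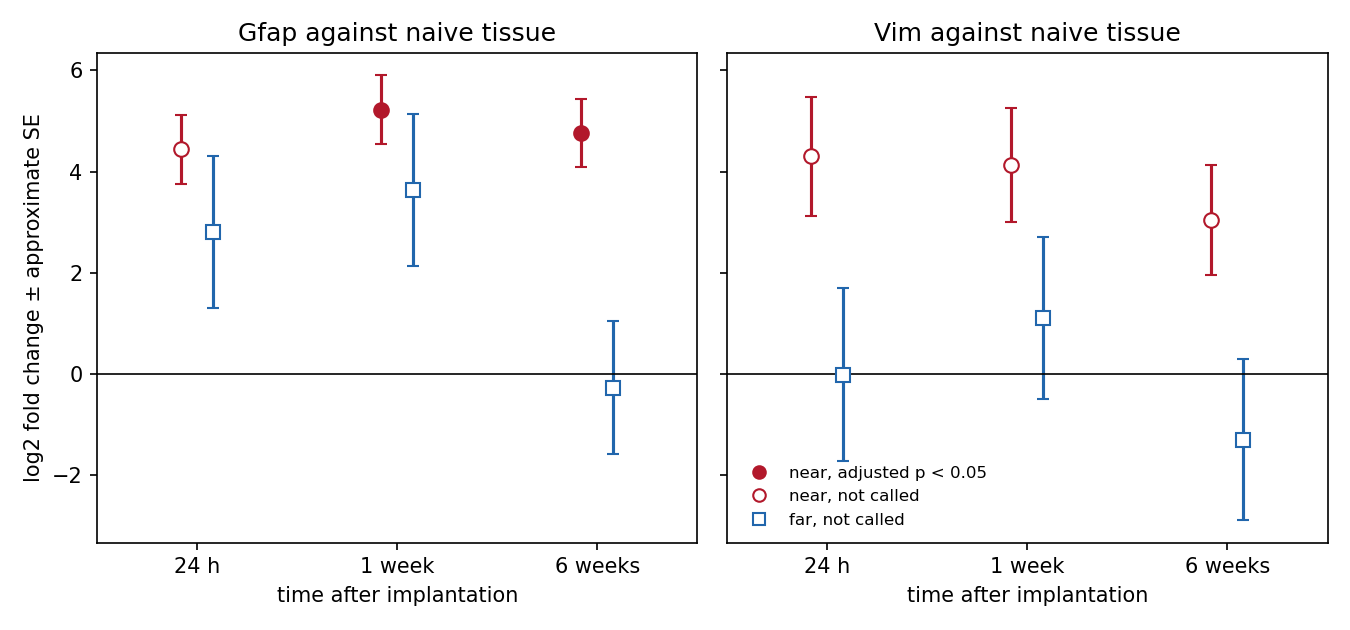
Log2 fold change against naive tissue at the matching position, Gfap left and Vim right, at the 3 times. Circles are near tissue, squares are far tissue, bars are approximate standard errors and filled symbols passed the test. Near Gfap lies between 4.44 and 5.22 at all times, and far Gfap lies between -0.26 and 3.64.

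Between times, far tissue held less Gfap at 6 weeks in value. The mean was 1299 CPM ± 929 (SD, n = 3) at 24 h, 2313 ± 3025 (SD, n = 5) at 1 week and 156 ± 129 (SD, n = 4) at 6 weeks. The log2 change from 1 week to 6 weeks was -3.90 ± 1.35 (edgeR adjusted p = 0.822), and from 24 h to 6 weeks -3.07 ± 1.36 (edgeR adjusted p = 1). The 24 h and 6 week values did not overlap. From 24 h to 1 week it was 0.84 ± 1.296 (edgeR adjusted p = 1). DESeq2 called the change from 1 week to 6 weeks (-3.999, adjusted p = 0.00603).

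For Vim in far tissue the log2 changes were 1.12 ± 1.59, -2.40 ± 1.52 and -1.29 ± 1.59 from 24 h to 1 week, 1 week to 6 weeks and 24 h to 6 weeks. None was called (edgeR adjusted p = 1 for each). In these 3 far comparisons edgeR called 0% of genes. Unadjusted p-values below 0.05 were found for 620, 777 and 570 of 13369 genes, and DESeq2 called 290, 218 and 302. If no gene changed, a share of 0.05 of all genes would have such a p.

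Near the shank, no change of either gene between times passed the test. Gfap averaged 1271 CPM ± 666 (SD, n = 3) at 24 h, 2177 ± 817 (SD, n = 5) at 1 week and 1590 ± 814 (SD, n = 4) at 6 weeks. Its log2 change was 0.79 ± 0.54 from 24 h to 1 week, -0.46 ± 0.48 from 1 week to 6 weeks and 0.32 ± 0.55 from 24 h to 6 weeks. Vim averaged 351 CPM ± 297 (SD, n = 3), 316 ± 149 (SD, n = 5) and 149 ± 145 (SD, n = 4). Its log2 changes in the same order were -0.16 ± 0.91, -1.10 ± 0.86 and -1.26 ± 0.95. The edgeR adjusted p was 1 for all 6 values. Of all genes 0.0145% were called from 24 h to 1 week and 0% in the other 2 comparisons. In those 2, 1182 and 916 of 13834 genes had an unadjusted p below 0.05, and DESeq2 called 347 and 424. If no gene changed, a share of 0.05 of all genes would have such a p.

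Ordered by mean log2 CPM, Gfap stood highest near the shank at 1 week (11.02), then near at 6 weeks (10.49), near at 24 h (10.12), far at 24 h (10.02) and far at 1 week (9.92). A gap of 3.11 separated these from naive 500 µm tissue (6.80), far tissue at 6 weeks (6.70) and naive 100 µm tissue (5.69). That gap was wider than the SD of either neighbour (at most 2.21), although their ranges overlapped. All other neighbours in the Gfap order differed by less than the larger of their SDs.

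The Vim order was near at 1 week (8.18), near at 24 h (8.05), near at 6 weeks (6.19), far at 24 h (5.16), far at 1 week (5.13), naive 500 µm (4.92), naive 100 µm (4.14) and far at 6 weeks (2.87). No 2 neighbours in it differed beyond the larger of their SDs. The last place of far tissue at 6 weeks rests on rat 2, whose 0 counts were set at -2.56 by the prior count. Rats 11, 17 and 19 stood at 4.51, 4.70 and 4.84. By median CPM, far tissue at 6 weeks (24.2) lay above naive 100 µm tissue (16.7). The gap between the lowest near group and the highest far group was 1.03 for Vim and 0.10 for Gfap.

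The ratio of Vim to Gfap counts in a sample does not depend on library scaling, and only its changes are read since counts were not set per length. Near tissue held 1.33 Vim counts per Gfap count in rat 25, 0.156 in rat 29 and 0.0648 in rat 30 at 24 h. Far tissue of these rats held 0.0427, 0.0430 and 0.0219. The log2 ratio was higher near than far by 2.79 ± 1.88 (SD, n = 3) at 24 h and by 1.96 ± 0.74 (SD, n = 5) at 1 week, in 8 of 8 rats. At 6 weeks it differed by -0.07 ± 1.59 (SD, n = 4), by -0.59 as the mean of single-library ratios and by -0.72 with the 0 Vim counts of rat 2 set at 3 counts.

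Over all implanted rats the log2 ratio was higher near the shank by 1.49 ± 1.73 (SD, n = 12), in 11 of these rats (exact permutation by sign flips, two-sided p = 0.0142, and 0.106 adjusted over 15 such tests). It was 2.20 lower in rat 11 and differed by 0.0056 in rat 19, both at 6 weeks. The sign for rat 2 is not determined, since it rests on 0 far Vim counts: at 3 counts the difference is -0.98 rather than 1.63. With that limit the mean was 1.28, above 0 in 10 rats. As the mean of single-library ratios it was 1.39, also above 0 in 10 rats, and rat 19 then stood at -2.28. The change of this difference from 1 week to 6 weeks was -2.03 (exact permutation test, p = 0.0238, and 0.214 adjusted over 45 comparisons). In naive tissue the log2 ratio averaged -1.56 ± 1.19 at 100 µm and -1.89 ± 0.46 at 500 µm (SD, n = 3). In far tissue of implanted rats it averaged -4.87 ± 0.56 (SD, n = 3) at 24 h and -4.80 ± 0.67 (SD, n = 5) at 1 week, and neither range overlapped the naive one at 500 µm. With the mean of single-library ratios the ranges did overlap, as naive tissue at 500 µm then gave -5.65, -4.68 and 0.56, and 2 of its 6 libraries had 0 Vim counts. Naive tissue at 100 µm then gave -0.86, -5.74 and -2.87, and 1 of its 6 libraries had 0 Vim counts.

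**Figure D4:**
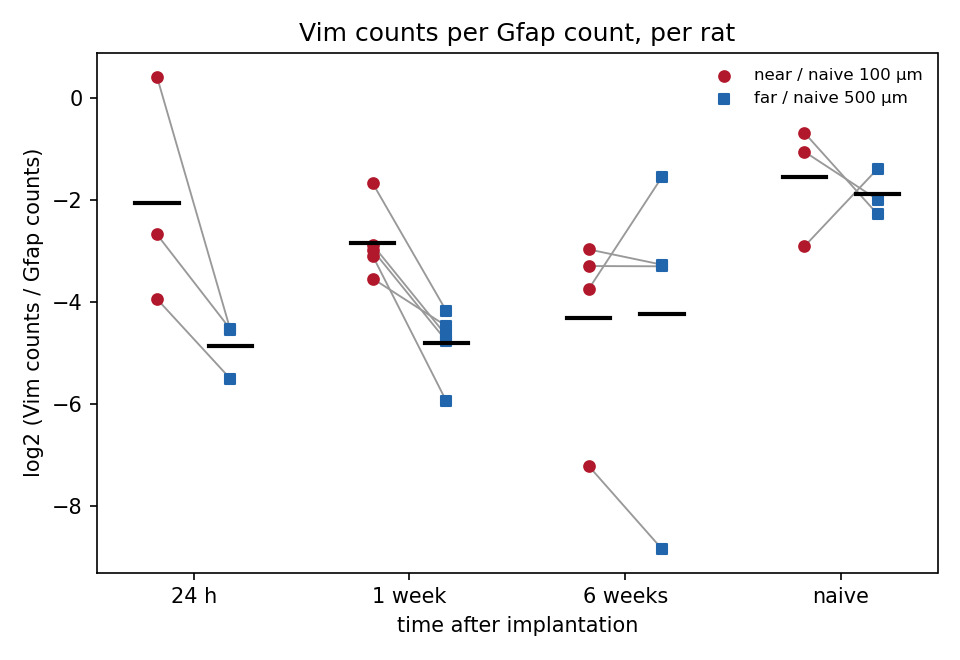
Log2 of Vim counts per Gfap count in each rat, by time, with naive rats at the right. Circles are near or naive 100 µm tissue, squares are far or naive 500 µm tissue, lines join the tissues of a rat and bars are group means. The ratio is higher near than far in all 8 rats at 24 h and 1 week, and the mean difference at 6 weeks is -0.07.

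Rats with a larger near-far difference in Gfap tended to have a larger one in Vim. Pearson's r over the 12 rats was 0.62 (permutation p = 0.0319, 0.0609 adjusted over 3 sets of rats) and Spearman's rho was 0.50 (permutation p = 0.0984, 0.251 adjusted). Without rats 25 and 22, the 2 farthest from the Gfap median, r was 0.65 (permutation p = 0.0406). Without the 3 rats that held a library of few detected genes it was 0.54 (permutation p = 0.130). The 2 values of a rat share its libraries and scaling, and no time had enough rats for a value of its own.

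Over the 24 rat-by-distance values of the implanted table, Vim and Gfap correlated with r = 0.80. Among the 5935 genes whose mean log2 CPM reached 3, each ranked in 3rd place by likeness to the other. The genes most like Gfap were ENSRNOG00000006030 (r = 0.82) and ENSRNOG00000048969 (r = 0.81). Those most like Vim were ENSRNOG00000002040 (r = 0.83) and ENSRNOG00000013733 (r = 0.81). These correlations are descriptions, and the 24 values share rats, distances and times.

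Naive tissue gave the background of the near-far comparison at the same 2 positions. The log2 difference of 100 µm against 500 µm was -1.22 ± 0.62 for Gfap and -0.80 ± 1.03 for Vim (edgeR adjusted p = 1 for both). No gene of 11839 was called (0%), 600 had an unadjusted p below 0.05, and DESeq2 called 1357. If no gene changed, a share of 0.05 of all genes would have such an unadjusted p. By rat, Gfap differed by -1.54, 1.22 and -3.02 and Vim by 0.06, -0.30 and -2.07 in naive rats 2, 3 and 5. Naive rat 5 gave the largest difference for both genes, and without it the values were -0.20 and -0.17. The 3 single naive libraries with 0 Vim counts allow up to 0.409, 0.478 and 0.539 CPM.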

How the data were processed

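The authors deposited whole-number counts of reads per gene, and per the labels the libraries came from laser-captured, fixed tissue with a strand-keeping kit. Per the submitters' processing notes, which assign no roles, the build was Rnor_6.0 and the tools were STAR 2.6.1b and RSEM 1.3.1, with cutadapt 2.3, DESeq2 and FastQC 0.11.8. The sources used here do not say whether RSEM estimates were rounded.

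Counts were summed per rat and distance, since hemispheres of a rat are not replicates. Groups were compared by the quasi-likelihood test of edgeR 4.0.16 under R 4.3.3 (filterByExpr by group, TMM, robust glmQLFit), and p-values were adjusted over all genes by Benjamini-Hochberg. Near against far had the rat as a block, with the 3 times in 1 fit. Near or far tissue of different times and naive tissue at the matching position were compared over genes in both tables. Approximate standard errors are the log2 difference over the root of the F statistic. Single values were tested by exact permutation over rats. The pairing comes from the labels, which give the rat. Near and far deviations of a rat correlated between 0.00507 and 0.136 across genes, above 0.1 in 1 of 12 rats. In all 120 pairs of libraries within a group the counts differed beyond sampling noise (chi-square at least 55.6 times its degrees of freedom).

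Alternatives were DESeq2 1.42.0 (its Wald test, and its size factors within edgeR), all genes with at least 1 count, leaving out each rat, no block, fewer groups or rats in a fit, no libraries below 6000 detected genes, no counts of the 2 most abundant genes, subtraction of the naive difference, other scaling of the per-rat values and, added after seeing the data, exact permutation between times, 0 Vim counts set at 3 and the motifs TATAAA and CCAAT. Beside Gfap and Vim, the rule named the 2 IDs most like each by Pearson's r. The members, lists and tests were chosen with earlier results of these data known. No ID matched a symbol in the reference table (0 of 18997), so the marker and pathway lists were not analysed here. The fits were also run on simulated counts, whose outcome is not given here. These counts held no differences between rats in the mean, so they cannot test the block by rat.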

Additional observations from a re-analysis of the deposited data

Results flagged for a closer look

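Vim in far tissue of rat 2 at 6 weeks, at 0 CPM, stood apart from the other 3 rats of its group, which measured 22.7, 25.8 and 28.4 CPM. It was the lowest value of the group. Dixon's test was made on log2 CPM with a prior count of 2, which sets the value given to 0 counts. On that scale the gap to the next rat was 0.956 of the range, above the 95% critical value for 4 samples. On the CPM scale the gap is a smaller share of the range, below that critical value, so the flag depends on the scale. The test was made for both genes in the 4 groups of 4 or 5 rats, which gave 8 sets of values that share rats, and 1 set stood out. Chance gives about 1 in 20 sets. Its Gfap value of 24.4 CPM was also the lowest of that group, and the library held 7505143 counts over 8058 genes. The cause was not tested.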

How the results depend on the processing

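Values below are log2 differences, and the cause of a changed call was not tested unless stated. In 8 of 18 alternative near-far fits edgeR set the spread of Gfap and Vim wholly from the trend over genes, whereas in the main analysis Gfap kept its own spread (prior degrees of freedom 0; 16.8 for Vim). The approximate standard error of the Gfap mean difference was then 0.134 to 0.315, against 0.558 to 0.718 in the other 10. Gfap near against far over all times was called in 8 of those 8 fits and in 0 of the other 10, so by construction these calls leave out its own spread between rats. For Vim over all times the counts were 8 of 8 and 9 of 10.

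Without the low-count filter, which is such a fit for near against far, Gfap was called at 1 week (1.19), 6 weeks (3.76) and over all times (1.69), for the changes to 6 weeks from 1 week (2.57) and 24 h (3.63), and near against naive at 24 h (4.49). Vim was called near against far at 24 h (2.88) and 6 weeks (3.30). Leaving out the libraries of few detected genes gave calls for Gfap at 6 weeks (3.78), over all times (1.45), for the changes to 6 weeks (3.18 and 3.80) and against naive at 24 h (4.21), and for Vim at 24 h (2.85) and 6 weeks (3.23). Gfap at 24 h turned to -0.020 and the Vim change from 24 h to 1 week to -0.46. After subtraction of the naive difference Gfap was called at 1 week (2.37), 6 weeks (4.97) and over all times (2.89), and Vim at 6 weeks (4.06). Under these alternatives, all Gfap calls near against far and for its change come from fits with the spread set wholly from the trend.

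The DESeq2 Wald test called Gfap near against far at 6 weeks (3.88) and over all times (1.87), near against naive at 24 h (4.60), far against naive at 1 week (3.74) and far from 1 week to 6 weeks (-3.999). It called Vim near against far at 24 h (3.08) and 6 weeks (3.50) and near against naive at 24 h (4.57), 1 week (4.43) and 6 weeks (3.18). It called 532, 1306, 331 and 1183 genes near against far at 24 h, 1 week, 6 weeks and over all times, where edgeR called 19, 57, 11 and 217. With DESeq2 size factors in edgeR, Gfap near against naive at 24 h was called (4.60) and Vim near against far at 1 week was not (3.29), nor was it without the 2 most abundant genes (3.02). With fewer groups in the fit, Gfap against naive was called at 24 h (4.49) and not at 6 weeks (4.76), and Vim against naive was called at 1 week (4.17). With the rats of 24 h alone, Vim near against far was called at that time (2.91).

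The pairing bears on several values. With no replicate block, Vim near against far was not called at 1 week (1.65) or over all times (2.49). Gfap turned to -0.056 at 24 h and -0.079 at 1 week, and the changes from 24 h to 1 week turned to -0.023 for Gfap and -1.25 for Vim. Exact permutation of per-rat values did not call Gfap against naive at 1 week (5.33) or 6 weeks (4.80). The unadjusted p-values of this permutation, 0.0179 and 0.0286, were the smallest possible, and both were 0.214 after adjustment over 45 comparisons. The per-rat values turned far Gfap (-0.10), far Vim (-0.032) and near Vim (0.13) from 24 h to 1 week and far Vim against naive at 24 h (0.25). That last value, -0.01 in the main analysis, was also positive without the filter (0.0111), the libraries of few genes (0.0113), the 2 genes (0.0102) or the other groups (0.0137). Library total scaling turned the per-rat Gfap difference at 24 h to -0.061. The relation of Gfap to Vim had an unadjusted permutation p of 0.0319 (0.0609 adjusted), and without the rats holding a library of few detected genes r was 0.54 (permutation p = 0.130).

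With each rat left out in turn, Gfap near against far ranged from -0.91 (without rat 29) to 1.22 (rat 25) at 24 h, 0.64 to 1.80 at 1 week (called without rats 22, 2 or 11), 3.28 to 4.14 at 6 weeks and 1.35 to 2.06 over all times (each called without rats 10, 20, 22, 2 or 11). Vim ranged from 2.35 to 3.40, 2.36 to 3.64, 2.66 to 3.92 and 2.84 to 3.28, called in 7, 10, 8 and 12 of 12 fits. The Gfap change ranged from -0.027 to 2.09 (24 h to 1 week), 1.98 to 3.13 (1 week to 6 weeks) and 2.56 to 4.69 (24 h to 6 weeks), called in 1 (without rat 22), 5 and 5 of 12 fits (the same 5 rats). All these Gfap calls come from fits with the spread set from the trend. The Vim change ranged from -0.52 to 0.75, -0.38 to 0.92 and -0.23 to 1.04, with 0 calls. Near against naive, Gfap ranged from 4.13 to 5.06, 4.92 to 5.83 and 4.41 to 5.36 at the 3 times, and Vim from 3.41 to 4.75, 3.93 to 4.47 and 2.27 to 3.44. Far against naive, Vim at 24 h ranged from -1.06 to 1.50, and at 6 weeks Gfap from -0.73 to 1.31 and Vim from -1.70 to 0.21. Near Gfap from 24 h to 6 weeks ranged from -0.067 to 0.62, near Vim from 24 h to 1 week from -0.61 to 0.77, and far Gfap from 24 h to 1 week from -0.25 to 1.48. The naive Gfap position difference ranged from -2.33 (called without naive rat 3) to -0.20. Of 303 results under the other alternatives 247 kept direction and call.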
